A study of Homo sapiens with 8 samples.

Results

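The genes described here encode the proteins of the mitochondrial ribosome. They were taken as the protein-coding RefSeq genes whose symbol is MRPL or MRPS followed by a digit, which gave 77 of the 20037 protein-coding genes with a position on GRCh38. By symbol, 49 belong to the large subunit (MRPL) and 28 to the small subunit (MRPS). The data are Flag ChIP-seq peak lists, which record where a Flag-tagged protein was found on chromatin, from Huh7, a human hepatocellular carcinoma cell line. In all 6 libraries the endogenous ARID1A gene had been knocked out and a Flag-tagged ARID1A was stably expressed from a lentivirus. ARID1A is a DNA-binding subunit of BAF, a SWI/SNF complex that moves nucleosomes. The groups were wild-type ARID1A (WT), the missense mutant V2084D, and V2084D in cells depleted of STUB1 by knockdown, with 2 libraries each. STUB1 is a chaperone-associated ubiquitin ligase. Peak names of the WT and V2084D lists carry the tag shEV, which the labels do not explain. The labels do not say which promoter drove the transgene, whether the knockout line was a single clone, or whether replicate libraries were grown as separate cultures. The p-values therefore measure only the spread between libraries, which may be technical. Input libraries of the WT cells were not analysed here.

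Mitochondria have their own ribosome, which translates the few membrane proteins of the respiratory chain that mitochondrial DNA encodes. All of its proteins are encoded in the nucleus, translated in the cytosol and imported. Their genes are broadly expressed housekeeping genes scattered over the chromosomes, and many such promoters are compact, rich in CpG and bound by ETS factors such as GABP or by YY1. MRPS18A and MRPS30 carry small-subunit symbols although their proteins sit in the large subunit.

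Promoter sequences are shown first, because most of these genes had a WT peak within 1 kb of the start. RefSeq promoter entries on GRCh38.p14, from 250 bases before to 50 bases after the start, were at hand for 69 of the 77 genes. The 7 shown were chosen with their values known. MRPL48 had the highest-ranked WT peaks of the 77 genes. MRPS31, MRPL38 and MRPL46 had a peak at the start in each of the 6 libraries. MRPL27 and MRPS18A had it in the WT libraries and in no mutant library, and MRPS18B had no peak anywhere. Capitals mark the ETS core CCGGAAG and the YY1 motif, on either strand; in MRPL46 and MRPS18B the capitals are the YY1 motif alone. Both motifs stood in 3 of the 69 promoters, and in 0 of these did they overlap. Each sequence reads 5′ to 3′ along the gene's own strand.
MRPL48: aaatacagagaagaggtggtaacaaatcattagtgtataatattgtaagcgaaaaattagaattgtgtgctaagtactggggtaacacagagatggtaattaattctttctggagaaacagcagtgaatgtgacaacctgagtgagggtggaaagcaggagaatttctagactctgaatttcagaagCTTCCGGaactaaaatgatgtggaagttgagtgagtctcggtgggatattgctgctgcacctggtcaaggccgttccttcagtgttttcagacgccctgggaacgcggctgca
MRPS31: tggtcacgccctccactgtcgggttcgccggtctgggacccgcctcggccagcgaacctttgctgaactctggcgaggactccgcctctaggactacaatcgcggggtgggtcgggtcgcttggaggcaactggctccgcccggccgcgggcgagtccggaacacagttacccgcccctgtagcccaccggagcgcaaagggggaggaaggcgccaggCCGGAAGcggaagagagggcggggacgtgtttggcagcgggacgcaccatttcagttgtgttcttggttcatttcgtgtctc
MRPL38: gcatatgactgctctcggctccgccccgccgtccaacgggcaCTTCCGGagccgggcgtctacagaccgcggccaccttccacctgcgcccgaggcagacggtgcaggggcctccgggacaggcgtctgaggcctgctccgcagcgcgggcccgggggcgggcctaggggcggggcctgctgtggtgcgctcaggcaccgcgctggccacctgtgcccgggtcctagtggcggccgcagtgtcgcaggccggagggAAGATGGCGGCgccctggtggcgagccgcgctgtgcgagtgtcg
MRPL46: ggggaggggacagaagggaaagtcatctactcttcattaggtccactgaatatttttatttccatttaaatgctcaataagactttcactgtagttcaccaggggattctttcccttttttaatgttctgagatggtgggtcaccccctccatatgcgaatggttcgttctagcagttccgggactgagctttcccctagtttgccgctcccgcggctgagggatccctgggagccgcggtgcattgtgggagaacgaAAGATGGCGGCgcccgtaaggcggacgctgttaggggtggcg
MRPL27: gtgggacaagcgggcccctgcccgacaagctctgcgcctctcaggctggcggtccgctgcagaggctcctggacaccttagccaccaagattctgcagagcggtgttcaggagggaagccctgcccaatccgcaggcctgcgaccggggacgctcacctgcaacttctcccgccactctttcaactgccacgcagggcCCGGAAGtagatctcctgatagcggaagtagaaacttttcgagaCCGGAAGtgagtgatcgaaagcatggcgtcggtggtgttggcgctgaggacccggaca
MRPS18A: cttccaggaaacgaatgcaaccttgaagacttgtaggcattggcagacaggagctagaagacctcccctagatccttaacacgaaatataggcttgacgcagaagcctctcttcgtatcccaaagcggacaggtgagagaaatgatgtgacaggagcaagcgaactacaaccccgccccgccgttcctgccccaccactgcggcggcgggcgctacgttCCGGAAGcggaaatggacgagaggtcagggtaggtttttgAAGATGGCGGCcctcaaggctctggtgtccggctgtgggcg
MRPS18B: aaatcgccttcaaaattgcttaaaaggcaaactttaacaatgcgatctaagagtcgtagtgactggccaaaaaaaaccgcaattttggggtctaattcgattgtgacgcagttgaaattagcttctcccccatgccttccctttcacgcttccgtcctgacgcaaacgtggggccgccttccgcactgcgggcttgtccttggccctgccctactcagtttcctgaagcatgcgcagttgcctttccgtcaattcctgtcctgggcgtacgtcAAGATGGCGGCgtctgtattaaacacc
The windows are chr11:73787624-73787923 (plus strand), chr13:40771141-40771440 (minus strand), chr17:75904835-75905134 (minus strand), chr15:88467339-88467638 (minus strand), chr17:50373135-50373434 (minus strand), chr6:43687742-43688041 (minus strand) and chr6:30617590-30617889 (plus strand).

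The letters of the ETS core stood in 29 of the 69 promoters (42.0%), compared with 14.2% of the 15842 promoters of all protein-coding genes with an entry. The YY1 motif stood in 10 of them (14.5%) and in 1.37% of all promoters. The YY1 letters lay close behind the start, with 9 of 10 matches downstream of it and a median offset of 11 bases, while the ETS matches had a median offset of -22 bases. The GC box GGGCGG was in 60.9% of these promoters and 58.5% of all, and the CCAAT box CCAAT was in 28.99% against 36.4%. The NRF1 motif, known from many genes of mitochondrial proteins, was found at MRPL17 alone (1.45% against 1.75%), the AP-1 motif TGANTCA at MRPS35 alone (1.45% against 5.75%), the E-box CACGTG in 8.70% against 8.88% and TATAAA in 2.90% against 9.63%. Among the 10843 promoters of genes with a peak in both WT libraries, the GC box stood in 69.3% and the CCAAT box in 35.8%. The ETS core stood in 17.5% of these and the YY1 motif in 1.82%. Both strands were searched for each motif. These matches describe letters and not bound sites, and the shares were not tested.

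**Figure D1:**
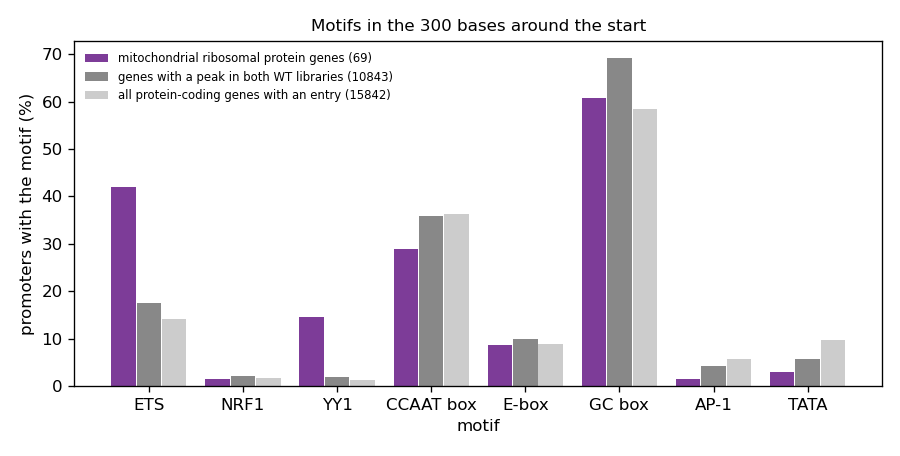
Share of promoters (percent, 300 bases around the start) that hold each motif on either strand, for mitochondrial ribosomal protein genes, for genes with a peak in both WT libraries within 10 kb, and for all protein-coding genes with an entry. The ETS core stood in 42.0% of the mitochondrial ribosomal protein promoters against 14.2% of all, and the YY1 motif in 14.5% against 1.37%.

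A gene was counted as carrying a peak when any base of a listed peak lay between 10 kb before and 10 kb after it. In WT cells nearly all mitochondrial ribosomal protein genes carried a peak, 70 of 77 (90.9%) in replicate 1 and 71 of 77 (92.2%) in replicate 2, where 71.9% and 71.2% of all protein-coding genes did. Both WT libraries had a peak at 65 of the 77 genes (84.4%), against 66.7% of all genes. At 64 of these 65 genes a peak of replicate 1 overlapped a peak of replicate 2, which was not counted over all genes. The mitochondrial ribosomal protein genes are short, with a median length of 8618 bp against 24115 bp for all genes. The window often held other genes as well: at 51 of the 70 genes with a peak in WT replicate 1, the strongest peak also lay in the window of another protein-coding gene. This share was not counted over all genes.

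The peaks sat on the promoters. Within 1 kb of the transcript start (of either gene end for the 8 genes without a promoter entry), 67 and 66 of the 77 genes had a WT peak (87.0% and 85.7%), against 57.2% and 55.9% of all genes. Both WT libraries had a start peak at 59 genes (76.6%), against 51.6% of all genes. Of the 63 genes with a known start and a peak, 49 had the summit of their strongest peak within 1 kb of the start in each WT library (77.8%), compared with 59.7% and 59.3% of all genes. That peak covered the start itself at 42 of the 63 in each library (66.7%), against 47.7% and 46.1% of all genes. The median distance between summit and start was 162 and 207 bp, against 409 and 415 bp over all genes. The strongest summit of MRPL11, whose protein forms the base of the stalk where translation factors bind, fell on the annotated start itself in WT replicate 1. That of MRPS31, a small-subunit protein gene, lay 1 bp from it in replicate 2. At the other extreme, the strongest WT replicate 1 peak in the window of MRPS27 lay 72996 bp inside the gene. Among the strongest WT peaks of each gene, the widest was that of MRPS34 in replicate 1, at 4732 bp. The narrowest width, 299 bp, was shared by MRPL20, MRPL32 and MRPL41 in replicate 1 and by MRPL23, MRPL45, MRPL50 and MRPS12 in replicate 2.

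**Figure D2:**
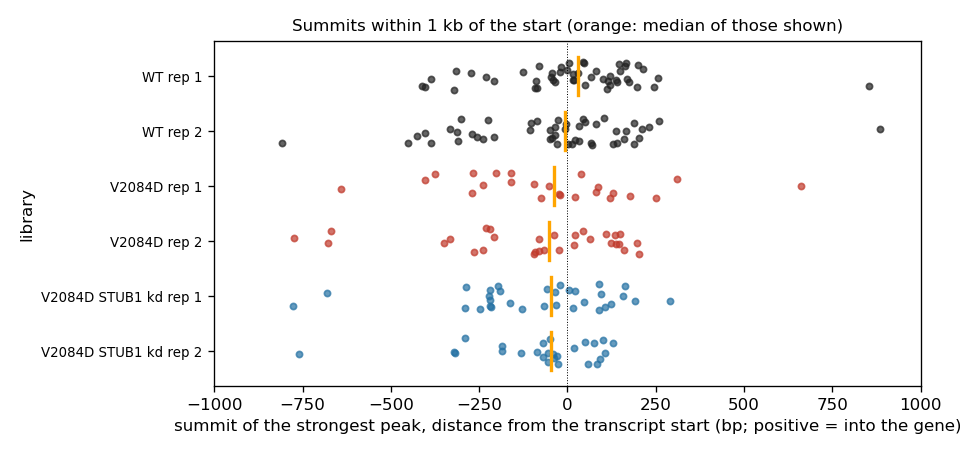
Distance in bp from the transcript start to the summit of the strongest peak of each mitochondrial ribosomal protein gene, by library, for summits within 1 kb, with vertical scatter for visibility and the median in orange. In the WT libraries 49 genes are shown each, with medians of 29 and -6 bp, and the mutant medians lie between -52 and -38 bp.

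The authors' fold enrichment is read here within 1 list at a time, as is the percentile of a peak, the share of its list's peaks with an equal or lower −log10 p. In the window the strongest peak of these genes had a median fold of 6.31 in WT replicate 1 and 5.61 in replicate 2, against 5.63 and 5.34 for all genes with a peak. The median of these percentiles was 84.9 and 78.8, against 76.5 and 75.1 for all genes. By the worse of both WT percentiles, MRPL48, MRPL11, MRPL58, MRPL53, MRPL13 and MRPL3 led the list.

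MRPL48, a large-subunit protein gene on chromosome 11, had start peaks with WT folds of 10.02 and 10.5, V2084D folds of 5.76 and 6.56, and knockdown folds of 6.45 and 5.56. The WT peaks spanned chr11:73787701-73788767 and chr11:73787741-73788657 (hg38) and cover the end of the promoter printed above. All 6 summits lay within 137 bp downstream of the start. Its WT ranks were 167 and 104, its V2084D ranks 700 and 360, and its knockdown ranks 287 and 412.

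At MRPL11 the WT folds were 9.81 and 11.4, those in V2084D 4.55 and 4.69, and those with knockdown 5.12 and 6.50. MRPL58 encodes a hydrolase of the large subunit that frees stalled ribosomes. Its folds were 8.09 and 7.40 in WT, 3.75 in V2084D replicate 1 with no peak in replicate 2, and 3.33 and 6.28 with knockdown. At MRPL3, a gene of a conserved core protein of the large subunit, WT had 8.81 and 7.42, V2084D replicate 2 had 5.92, replicate 1 had no peak, and the knockdown libraries had 6.71 and 3.72. High WT ranks thus did not always go with mutant peaks. MRPL13, another conserved large-subunit protein gene, had WT folds of 7.19 and 7.65, at percentiles of 94.6 and 97.8, and all 4 mutant lists lacked it.

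**Figure D3:**
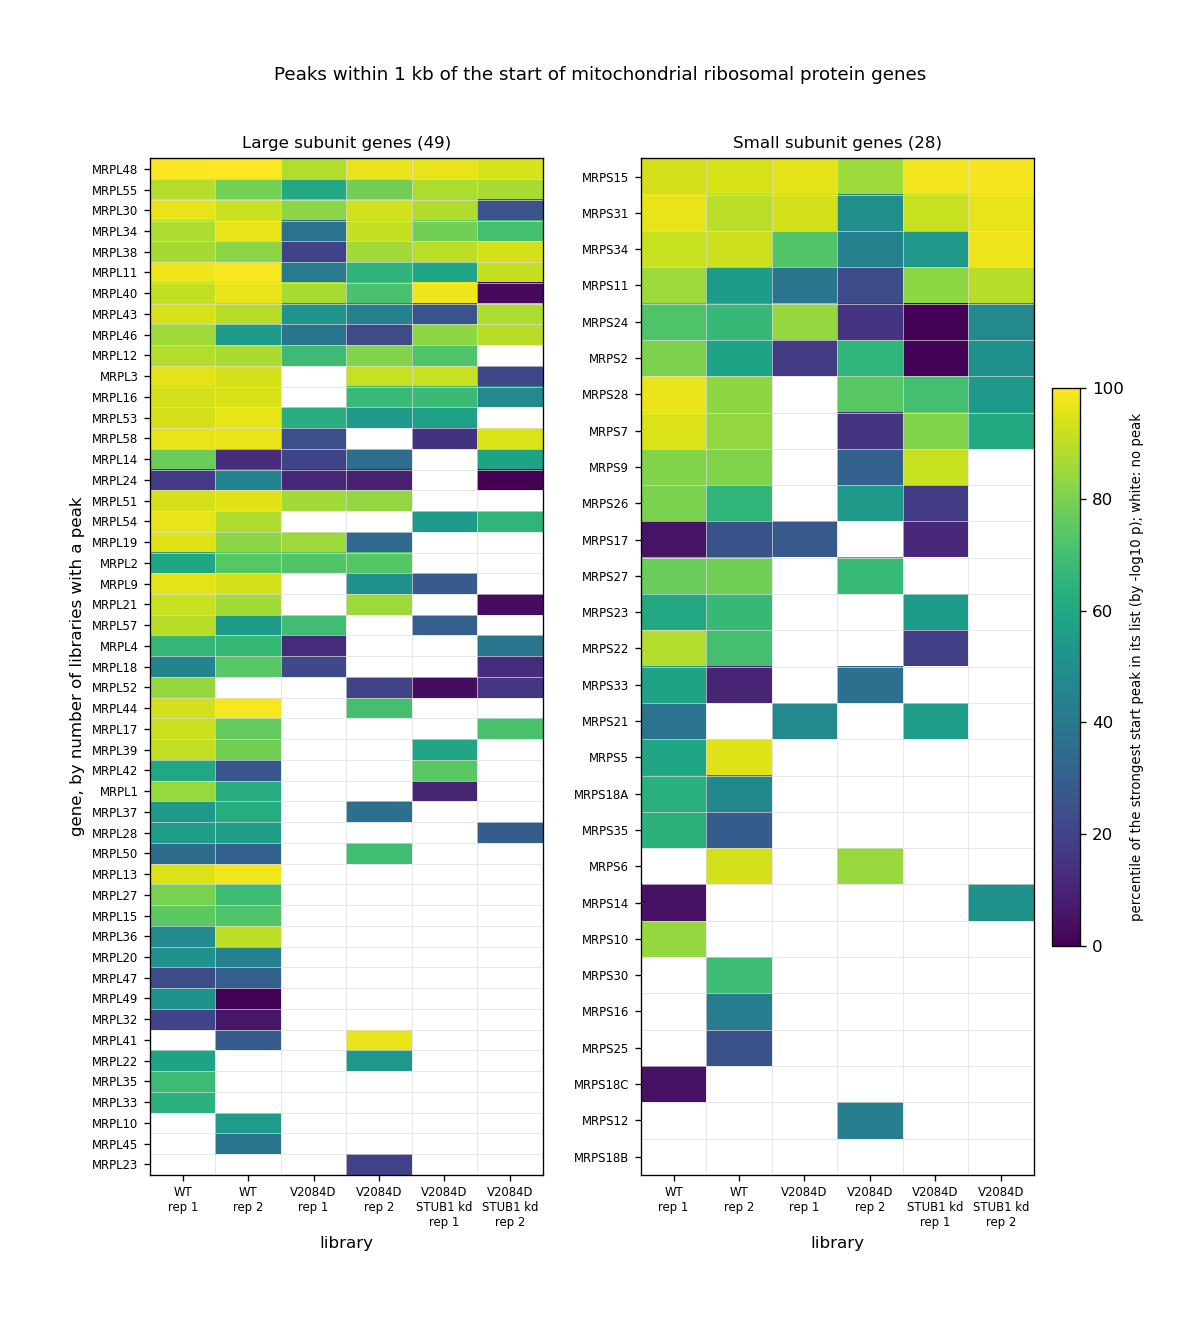
Each row is a mitochondrial ribosomal protein gene (49 large-subunit genes on the left, 28 small-subunit genes on the right) and each column a library. Colour gives the percentile of its strongest peak within 1 kb of the start in that library's list, and white means that no such peak was listed. The WT columns are filled at 67 and 66 genes, the V2084D columns at 28 and 41, and the STUB1 knockdown columns at 35 and 30.

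Fewer of the mitochondrial ribosomal protein genes carried a peak of the V2084D mutant than of WT ARID1A: 30 of 77 in replicate 1 (39.0%) and 51 in replicate 2 (66.2%), where 28.8% and 46% of all genes did. The groups did not overlap, at 91.6% ± 0.918 (SD, n = 2) for WT and 52.6% ± 19.3 (SD, n = 2) for V2084D. The difference was -39.0 percentage points, with pairs of libraries from -53.2 to -24.7 (exact permutation test, two-sided, p = 0.33, adjusted p = 0.5 over 3 group pairs). With 2 libraries against 2, 0.33 is the smallest p this test allows. Over all genes the same difference was -34.1 points, and the V2084D lists were shorter, with 6000 and 12384 peaks against 27587 and 26515. In lists cut to the strongest 6000 peaks each, the difference was -10.4 points for these genes and -4.19 for all genes. Altered binding, depth and list length cannot be told apart here.

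The share of these genes above the share of all genes was 19.1 and 21.0 points in WT and 10.1 and 20.3 points in V2084D. These differed by -4.83 points (exact permutation p = 0.667, adjusted p = 1; library pairs between -10.9 and 1.21), and the libraries of the 2 groups overlapped. This value depended on the setting. It was -7.28 points with a 1 kb window, -9.71 at the starts, -13.6 for peaks with −log10 q of at least 5, -12.5 for folds of at least 5 and -6.19 in lists of equal length, and in these 5 settings the groups did not overlap, though in lists of equal length the nearest libraries were almost level (exact permutation p = 0.33 in each, the smallest allowed). Without V2084D replicate 1 the difference was 0.243. Within their lists the strongest peaks of these genes stood at a median percentile of 54.7 and 67.6 in V2084D, against 57.9 and 65.4 for all genes.

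Of the 65 genes with a peak in both WT libraries, 26 had a peak in both V2084D libraries (40.0%), against 35.7% of all genes with a peak in both WT libraries, and 14 had none (21.5%), against 28.7%. With V2084D replicate 1 left out the first count was 47, and with V2084D replicate 2 left out the second was 35. The 14 were MRPL13, MRPL15, MRPL27, MRPL32, MRPL36, MRPL47, MRPS35, MRPL1, MRPL17, MRPL39, MRPL42, MRPS22, MRPS23 and MRPL54. After MRPL13, the strongest in WT were MRPL54, MRPL39, MRPL17, MRPL15 and MRPS22. MRPL17 had folds of 7.66 and 5.33 in WT and a peak of 4.64 in knockdown replicate 2. MRPS22, a small-subunit protein gene, had 6.64 and 5.03 in WT and 3.73 in knockdown replicate 1. MRPL27, a protein next to the catalytic centre, had 5.04 and 4.59 in WT, at chr17:50372879-50373508 and chr17:50373052-50373598, and no peak in any mutant library.

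At the starts, 22 of the 59 genes with a peak in both WT libraries had a peak in both V2084D libraries (37.3%, against 27% of all such genes) and 19 had none (32.2%, against 37.4%). Start peaks were listed at 28 and 41 genes in V2084D (36.4% and 53.2%), against 18.5% and 30.9% of all genes. The difference from WT at the starts was -41.6 points for these genes and -31.9 for all genes. Mutant peaks fell where WT peaks were: in the windows of these genes 38 of 38 V2084D replicate 1 peaks and 68 of 79 replicate 2 peaks overlapped a WT peak by at least 1 bp, against 88.5% and 78.7% of each whole list.

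**Figure D4:**
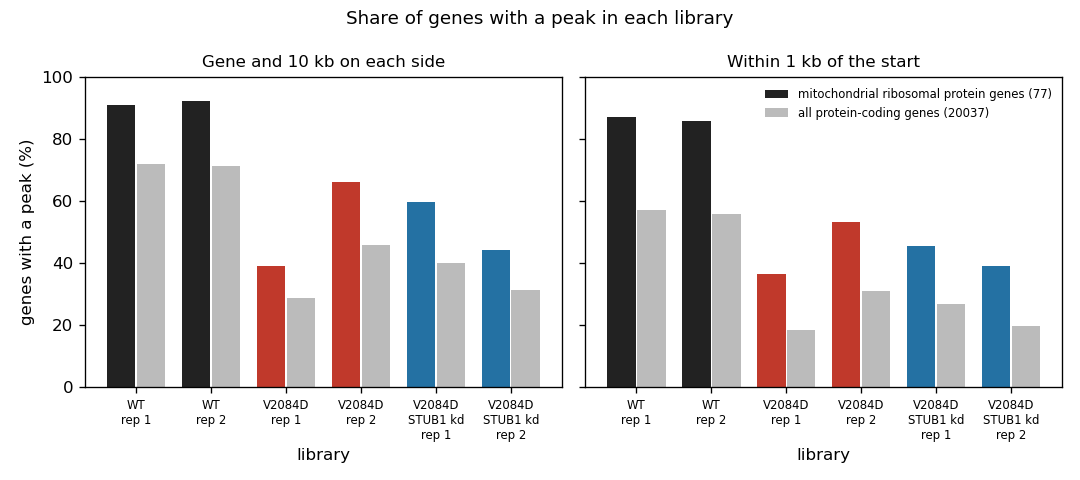
Percent of genes with a peak in each library, within the gene and 10 kb on each side (left) and within 1 kb of the start (right). Coloured bars are the 77 mitochondrial ribosomal protein genes (black WT, red V2084D, blue V2084D with STUB1 knockdown) and grey bars all 20037 protein-coding genes; the coloured bar is the higher in each of the 6 libraries.

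The STUB1 knockdown libraries address whether the mutant is found at more genes once the ligase is depleted. At these genes the knockdown libraries lay between the 2 V2084D libraries, with 46 of 77 genes in replicate 1 (59.7%) and 34 in replicate 2 (44.2%), against 40% and 31.4% of all genes. The means were 51.9% ± 11.02 (SD, n = 2) with knockdown and 52.6% ± 19.3 (SD, n = 2) without. The difference was -0.649 points, with pairs from -22.1 to 20.8, less than the libraries of each group differed among themselves (exact permutation p = 1). It was -14.3 points without V2084D replicate 1, 12.987 without V2084D replicate 2, -8.44 without knockdown replicate 1 and 7.14 without knockdown replicate 2. The share of the 65 WT genes with a peak was 46.2% and 72.3% in V2084D and 69.2% and 49.2% with knockdown, a mean of 59.2% in each group and a difference of 0 points (pairs from -23.1 to 23.1, exact permutation p = 1). Against WT, the knockdown libraries differed by -39.6 points, with each pair of libraries between -48.1 and -31.2 (exact permutation test, p = 0.33, adjusted p = 0.5). In lists of equal length that difference was -9.09 points. Above the share of all genes, these genes stood 19.8 and 12.8 points higher with knockdown, which differed from V2084D by 1.08 points (exact permutation p = 1) and from WT by -3.75 points (exact permutation p = 0.667). The difference from V2084D was 3.79 points for −log10 q of at least 5 and 4.51 for folds of at least 5 (exact permutation p = 0.33 in both), and -1.28 with a 1 kb window and -1.23 at the starts (exact permutation p = 1 in both). The difference from WT was -8.56 points with a 1 kb window, -10.9 at the starts, -9.79 for −log10 q of at least 5, -8.04 for folds of at least 5 and -5.48 in lists of equal length (exact permutation p = 0.33 in each). In the main setting its library pairs ran from -8.22 to 0.712, so these groups overlapped. It was -2.78 points without WT replicate 2 and -0.257 without knockdown replicate 2. Both knockdown libraries had a peak at 27 of the 65 genes (41.5%, against 37.6% of all WT genes; 45 without knockdown replicate 2). At the starts, 35 and 30 of the 77 genes had a knockdown peak (45.5% and 39.0%), against 26.9% and 19.8% of all genes, and 21 of the 59 WT genes had it in both (35.6%, against 28.3%).

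MRPL54 was the gene with a peak in both WT libraries, none in V2084D and a peak in both knockdown libraries (1 of 65, 1.54%, against 2.11% of all WT genes; 8 genes without V2084D replicate 2, 6 without knockdown replicate 2, and 2 without replicate 1 of either group). Its folds were 7.47 and 6.27 in WT and 4.47 and 4.58 with knockdown. The strongest peaks did not all lie at 1 place. The strongest WT replicate 1 summit was 115 bp inside the gene. Those of WT replicate 2 and of the knockdown libraries lay 761 to 807 bp before it, where the divergent gene APBA3 starts 990 bp away. The window held 3 peaks of WT replicate 1 and 2 of WT replicate 2. At the starts MRPL54 was again the single such gene (1 of 59, 1.69%, against 2.5%).

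In the opposite pattern the V2084D libraries both had a peak and the knockdown libraries lacked it. This held at 4 of the 65 genes (6.15%, against 2.92%), namely MRPL19, MRPL2, MRPL20 and MRPL51. This count was 8 without V2084D replicate 1 and 7 without knockdown replicate 1. MRPL19, a large-subunit gene, had WT folds of 9.06 and 6.79 and V2084D folds of 6.50 and 3.95, from chr2:75646613-75647185 in WT replicate 1. MRPL51 had WT folds of 5.96 and 6.89 and V2084D folds of 5.52 and 4.92, with summits 271 to 773 bp before its start, on the side of NCAPD2, a condensin gene whose start lies 840 bp away on the other strand. MRPL2, whose protein helps form the catalytic centre, had WT folds of 5.12 and 5.69 and V2084D folds of 5.38 and 5.35. At the starts 3 of these genes showed it (5.08% of 59, against 3.06%), and MRPL20 had no V2084D peak there.

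A peak in all 6 libraries was found at 18 of the 77 genes (23.4%), against 16.4% of all genes, and at the start of 15 (19.5%), against 8.66%. The 15 were MRPL11, MRPL30, MRPL34, MRPL38, MRPL40, MRPL43, MRPL46, MRPL48, MRPL55, MRPS2, MRPS11, MRPS15, MRPS24, MRPS31 and MRPS34. In the wider window MRPL12, MRPL24 and MRPL49 joined them, so that 18 of the 65 WT genes (27.7%, against 24.6%) had a peak in all 4 mutant libraries. MRPL12 encodes the flexible stalk protein of the large subunit. MRPL55 and MRPS15 lie on stretches of chromosome 1 where the mutant lists hold an excess of peaks, and without the 3 genes there (MRPL37 is the other) the count was 16 of 74 (21.6%).

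MRPS15, a small-subunit gene, had WT folds of 8.30 and 7.21, V2084D folds of 7.79 and 4.62, and knockdown folds of 7.24 and 7.88. Its WT ranks were 1784 and 1634, its V2084D ranks 245 and 1824, and its knockdown ranks 169 and 99, from lists that differ in length, so that these ranks show no change. MRPS31 had WT folds of 8.89 and 6.75, V2084D folds of 7.03 and 3.94, and knockdown folds of 6.71 and 7.29, on the promoter printed above (chr13:40770909-40771909 in WT replicate 1). MRPS34, a small-subunit gene known from mitochondrial disease, had WT folds of 7.89 and 6.90, V2084D folds of 5.38 and 3.83, and knockdown folds of 4.40 and 8.38. Its WT replicate 1 peak, 4732 bp wide, had its summit 2811 bp downstream of the start, past the far end of the gene. The summits of its other start peaks lay within 184 bp of the start. By the worst percentile over all 6 lists, the strongest in the window were MRPS15, MRPL48, MRPL55, MRPL24, MRPS34 and MRPS31. The strongest peaks of MRPL24 had their summits 12144 to 12501 bp downstream of its start, and knockdown replicate 1 had no peak at that start.

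MRPL46 and MRPS11 start 320 bp apart on opposite strands of chromosome 15 and shared a single peak in each library, so they are not independent. That peak spanned chr15:88467153-88467963 in WT replicate 1, between a large-subunit and a small-subunit gene. Its WT folds were 6.31 and 4.39, its V2084D folds 4.04 and 3.41, and its knockdown folds 5.31 and 5.25. Within its own list it stood at WT percentiles of 85.4 and 54.6, V2084D percentiles of 38.9 and 22.7, and knockdown percentiles of 82.9 and 89.1, a difference that was not tested.

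A start of another protein-coding gene lay within 1 kb on the opposite strand at 22 of the 69 genes with a known start (31.9%), compared with 12.5% of all such genes. Among these neighbours were MITD1 at MRPL30, FAU at MRPL49, TCP1 at MRPL18 and PSMA2 at MRPL32. Both WT libraries had a peak at 19 of the 22 and at 39 of the 47 without such a neighbour, and all 6 had it at 7 and at 11. Over all genes, not split by neighbour, 66.7% had a peak in both WT libraries and 16.4% in all 6. Peaks at these shared promoters cannot be assigned to either gene.

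The median WT fold was higher in classes of genes with more mutant start peaks. Among the 59 genes with a WT start peak in both libraries, the 15 with a start peak in all 4 mutant libraries had a median WT fold of 7.25 and 6.75, the 33 with 1 to 3 had 6.34 and 5.36, and the 11 with none had 4.99 and 4.47. Over all genes the medians of these classes were 7.03 and 6.59, 5.56 and 5.33, and 4.70 and 4.47. The classes overlapped widely: the folds of the 11 ran from 3.65 to 7.19 in WT replicate 1, and those of the 15 from 5.30 to 10.02. The 11 were 18.6% of the 59, against 25.7% of all genes with a WT start peak in both libraries. In the wider window 7 of the 65 genes had none of the mutant peaks (10.8%, against 19.2%). The classes were not tested against each other.

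**Figure D5:**
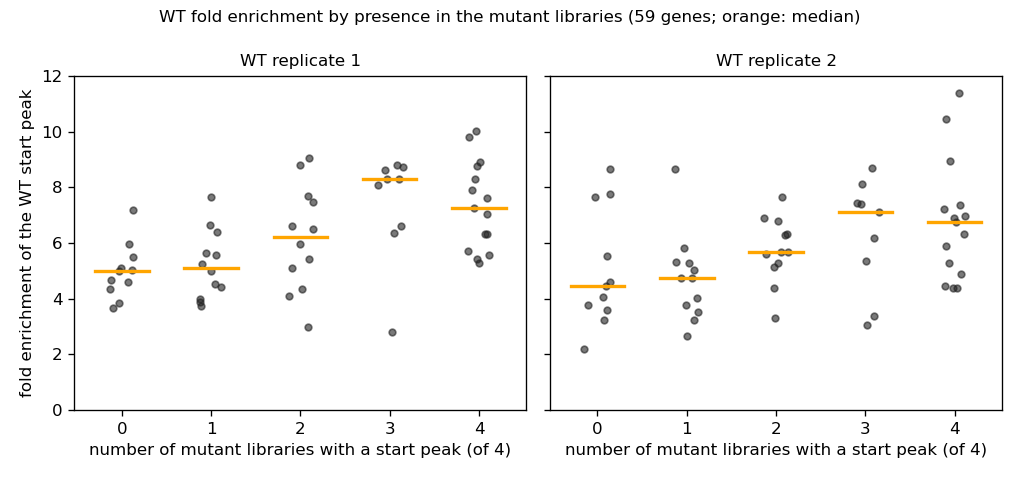
Authors' fold enrichment of the WT start peak (left replicate 1, right replicate 2) against the number of mutant libraries, of 4, with a peak at the same start; each point is 1 of 59 genes and the orange line is the median. Genes with none had medians of 4.99 and 4.47 and genes with 4 had 7.25 and 6.75, with overlapping ranges.

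By subunit, both WT libraries had a peak at 45 of 49 large-subunit genes (91.8%) and at 20 of 28 small-subunit genes (71.4%), as named by symbol. The share of all genes was 66.7%. Both V2084D libraries had a peak at 18 of those 45 and 8 of those 20, against 35.7% of all WT genes. None of the V2084D libraries had it at 11 and 3 (24.4% and 15%), against 28.7%. All 6 libraries had it at 12 large-subunit genes (24.5%) and 6 small-subunit genes (21.4%), against 16.4% of all genes. V2084D replicate 1 covered 44.9% of the large-subunit and 28.6% of the small-subunit genes, against 28.8% of all genes. Replicate 2 covered 65.3% and 67.9%, against 46%, so the order differed between the 2 libraries. With knockdown the shares were 57.1% and 64.3% in replicate 1, against 40% of all genes. In knockdown replicate 2 they were 51.0% and 32.1%, against 31.4%.

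The gene without any peak in its window was MRPS18B, on chromosome 6, against 22.6% of all genes without a peak (4 such genes when either WT library was left out), and 37.6% of all genes had none at the start. Its promoter carries the YY1 letters at 23 bases behind the start, as printed above. Its paralogue MRPS18A had WT start peaks with folds of 5.49 and 4.47 and no mutant start peak, and MRPS18C had a single peak, of 2.51 in WT replicate 1. With it, 11 of the 77 genes had a peak in just 1 WT library. Of all genes, 71.9% had a peak in WT replicate 1, 71.2% in WT replicate 2 and 66.7% in both. Among the other genes of the 11, MRPL33, MRPL45, MRPS10, MRPS25 and MRPS30 had no mutant peak either. MRPS6 had 7.42 in WT replicate 2 and 5.15 in V2084D replicate 2. At MRPS12, which encodes a protein of the decoding centre, the start peak was found in V2084D replicate 2 alone, with a fold of 3.69, and that peak also lay in the window of SARS2, which starts 181 bp away on the other strand. At the start of MRPL23 the same held, with 3.61.

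Motif and occupancy can be set side by side at the starts. Of the 29 genes with the ETS core, 27 and 23 had a WT start peak, 11 and 15 a V2084D start peak, and 17 and 13 one with STUB1 knockdown. Of the 40 without it, the counts were 34 and 37, 16 and 22, and 17 and 15. Over all genes a WT start peak was listed at 82.4% and 80.3% of promoters with the ETS core and at 55.1% and 53.8% of those without. For V2084D these shares were 28.3% and 45.2% with the core against 17.8% and 29.7% without, and for the knockdown 41.1% and 31.9% against 25.9% and 18.8%. Of the 10 genes with the YY1 motif, 8 and 7 had a WT start peak, 3 and 5 a V2084D one, and 3 in each knockdown library. Over all genes with the motif a WT start peak was listed at 91.7% and 87.6%, a V2084D one at 27.6% and 48.4%, and a knockdown one at 45.2% and 33.2%. Without it the WT shares were 58.5% and 57.1%, the V2084D shares 19.1% and 31.6%, and the knockdown shares 27.8% and 20.5%. MRPL46 and MRPS18B both hold the YY1 letters, the first with a peak in all 6 libraries and the other without any.

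Other genes of mitochondrial translation were counted in the same window. Of all protein-coding genes 66.7% had a peak in both WT libraries, and of those 35.7% had it in both V2084D libraries and 28.7% in neither; the V2084D counts that follow are likewise of the WT genes of each list. Of 5 mitochondrial ribosome proteins with other symbols all 5 had a WT peak in both libraries, and DAP3, AURKAIP1 and GADD45GIP1 in all 6, whereas PTCD3 and CHCHD1 had none in the 4 mutant libraries. Of 16 translation factor and mRNA genes, 15 had it in both WT libraries, and of these 5 in both V2084D libraries and 4 in neither. GFM2, which recycles mitochondrial ribosomes, had WT folds of 9.65 and 8.82, MTIF3, an initiation factor, 10.8 and 7.80, and TACO1, an activator of translation, 8.69 and 11.7. Of 19 aminoacyl-tRNA synthetase genes, 16 had it in both WT libraries, and of these 6 in both V2084D libraries and 5 in neither. SARS2, the divergent neighbour of MRPS12, and VARS2 had no WT peak. Of 24 assembly factor genes, 21 had it in both WT libraries, and of these 9 in both V2084D libraries and 6 in neither, while TFB1M, an rRNA methyltransferase gene, had no WT peak.

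All 10 genes of mitochondrial DNA transcription and replication had a peak in both WT libraries, 5 of them in both V2084D libraries and 3 in neither. POLG2, a subunit of the mitochondrial DNA polymerase, had WT folds of 10.3 and 9.91. The 9 regulators of nuclear genes for mitochondria also all had it in both WT libraries, 6 in both V2084D libraries and 1, PPARGC1A, in neither. GABPA, the DNA-binding subunit of the ETS factor GABP, had 9.81 and 11.9 in WT, and ESRRA, a nuclear receptor, 10.66 and 10.98. Of the 92 cytosolic ribosomal protein genes, a set that includes paralogues and read-through genes, 85 had a peak in both WT libraries (92.4%), 40 of those in both V2084D libraries and 15 in neither. All 6 libraries had it at 31 of the 92 (33.7%), against 16.4% of all genes. Differences between these lists were not tested.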

How the data were processed

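Flag ChIP-seq peak lists of 6 libraries (3 groups of 2) were used. The submitters' processing notes name the build hg38 and, with no role or order, MACS2, Bowtie2, Trimmomatic, deepTools, bedtools, Picard and SAMtools. Versions, settings and call controls: not given in the sources used here. The deposited peak names carry 1 library each, so peaks were called per library. The deposited values are fold enrichment (a ratio), −log10 p and −log10 q, and the summit offset. Read depth is unknown from these lists, so no interval could be given, and list length moves with depth and yield as well as binding.

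Gene positions, strands, starts and promoters came from RefSeq tables of GRCh38.p14, the same assembly as hg38. Exons, introns and UTRs were not used. Presence was counted per library with Python 3.11.15 and pandas 2.3.3. Groups were compared by exact permutation of the libraries with Benjamini-Hochberg adjustment within a measure, with no test over genes. The code was tested on simulated data with planted peaks. The genes, lists and motifs were chosen with earlier results of these data known. The genes named were the strongest in WT, in all 6 lists, among those without V2084D peaks and in each pathway list, and up to 10 of each unusual pattern, with others named as members. Not every list gene so named is described. Alternatives were a 1 kb window, summits, starts, stricter −log10 q or fold (at least 5), equal lists, stretches of chromosomes 1 and 6 left out, each library left out, and a replicate block.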

Additional observations from a re-analysis of the deposited data

How the results depend on the processing

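The lower share of genes with a V2084D or knockdown peak than with a WT peak kept its direction under the 8 alternatives that used every library, from -50.0 to -10.4 points for V2084D and from -44.8 to -9.09 for knockdown, and in the 4 that left a library out, from -52.6 to -25.3 and from -47.4 to -31.8. The replicate block among the 8 cannot change a difference. Over all genes the differences were -34.1 points for V2084D and -35.9 for knockdown in the main setting. In lists of equal length they were -4.19 and -3.62, so the kept direction was not particular to these genes. Stricter lists moved the counts, which are given here for these genes alone. The share of all genes with a peak fell too. With −log10 q of at least 5 it was 49.7% and 44.8% in WT and 7.06% and 14.6% in V2084D. With fold of at least 5 it was 47.6% and 43.0% in WT and 10.7% and 15.4% in V2084D. For lists of equal length it was 33.3% and 33.2% in WT and 28.8% and 29.4% in V2084D. With −log10 q of at least 5, 42 genes had a peak in both WT libraries, 24 of them none in V2084D, 5 a peak in both V2084D libraries, 8 in both knockdown libraries, 0 the regained and 1 the opposite pattern, with 2 in all 6 libraries and 15 in none. With fold of at least 5 these counts were 40, 23, 6 and 7, then 1 for the opposite pattern, 2 and 20. In lists of equal length they were 31, 6, 13, 17, 2, 1, 10 and 13. The difference between knockdown and V2084D turned to 6.49, 5.84 and 1.30 points in these settings. Set against all genes it was 1.08 points, and -1.28 with the 1 kb window, -1.23 at the starts, 3.79 with −log10 q and 4.51 with fold of at least 5. V2084D minus WT against all genes ran from -13.6 to -4.83 under the 8 alternatives, and knockdown minus WT from -10.9 to -3.35.

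With a library left out, the difference between knockdown and V2084D ran from -14.3 to 13.0 points, and against all genes from -3.99 to 6.15. For V2084D minus WT against all genes the range was -9.91 to 0.243, and for knockdown minus WT -7.25 to -0.257. The counts ran from 17 to 35 for no V2084D peak, 26 to 47 and 27 to 45 for a peak in both V2084D and in both knockdown libraries, 1 to 8 for the regained pattern, 4 to 8 for the opposite pattern and 1 to 4 for no peak in any library; a lone library then stood for its group. These counts too are of the mitochondrial ribosomal protein genes alone, without the share over all genes. The cause of these changes was not tested. With replicate numbers as a replicate block, V2084D minus WT was -39.0 points (exact sign-flip permutation p = 0.5, the smallest it allows). The block changes only the test, so each difference stayed the same by construction. Same-numbered libraries did not deviate together over all genes, with correlations from -0.0713 to 0.00506. With 2 libraries per group this cannot show whether same-numbered libraries were prepared together, which the labels do not say. Depth is unknown, and a gene without a listed peak may be bound below the caller's threshold.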
